A study of Homo sapiens with 4 samples.

Results

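Deep intronic peaks of RNA polymerase II (Pol II) were examined in SK-OV-3 cells, an established line of human epithelial ovarian cancer. A peak was taken as deep intronic when its midpoint lay inside a protein-coding gene, outside every annotated exon of any gene type, and more than 5 kb from the transcription start site (TSS) of every annotated gene. Only chromosomes 1 to 22 and X were used. By this rule 4025 of 18377 peaks were deep intronic, of which 737 were among the 4014 peaks of control cells and 3288 among the 14363 peaks of knockdown cells. The rule used position alone and no measured level.

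The cells were stable lentiviral lines that expressed a hairpin from the H1 promoter, either against the bacterial gene LacZ (shLacZ, the control) or against RRN3 (shRRN3), an initiation factor of RNA polymerase I. The study used them to ask whether RRN3 affects where Pol II is found along genes, including where it terminates. Chromatin was immunoprecipitated with an antibody against Pol II and sequenced (ChIP-seq), with 1 Pol II library and 1 input library per hairpin. The input libraries were not analysed here, and which of the study's hairpins against RRN3 was used for the ChIP is not stated.

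Pol II is recruited to promoters, pauses shortly after initiation and then crosses the gene body, where its density is usually low. Strong local accumulation far inside a gene can mark a further start site, an enhancer that is itself transcribed, a place where elongation slows, or the stretch behind a polyadenylation site where termination takes place. Introns hold many enhancers. AP-1 is a dimer of FOS and JUN proteins that binds the word TGANTCA and occupies many enhancers of epithelial and mesenchymal cells, often with TEAD and RUNX factors, whereas SP and KLF factors bind GC-rich words at CpG island promoters.

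The sequences of 5 deep intronic peaks show the kinds of members that the results below turn on. Each is the 300 bases around the midpoint of the peak, on the plus strand of GRCh38, with AP-1 words (TGANTCA) and SP/KLF words (GGGCGG or CCGCCC) in capitals. The first 2 peaks were over 5 kb from any annotated transcript start and held AP-1 words. They lay in ADAMTSL3, which encodes a secreted matrix glycoprotein, and KIF6, a kinesin gene.
ADAMTSL3, shRRN3, chr15:83733201-83733500: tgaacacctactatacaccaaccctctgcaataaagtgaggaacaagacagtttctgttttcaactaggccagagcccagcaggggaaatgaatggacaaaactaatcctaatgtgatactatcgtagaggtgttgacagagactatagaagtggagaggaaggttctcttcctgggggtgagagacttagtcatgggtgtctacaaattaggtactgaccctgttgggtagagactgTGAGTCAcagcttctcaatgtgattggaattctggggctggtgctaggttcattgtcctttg
KIF6, shLacZ, chr6:39452422-39452721: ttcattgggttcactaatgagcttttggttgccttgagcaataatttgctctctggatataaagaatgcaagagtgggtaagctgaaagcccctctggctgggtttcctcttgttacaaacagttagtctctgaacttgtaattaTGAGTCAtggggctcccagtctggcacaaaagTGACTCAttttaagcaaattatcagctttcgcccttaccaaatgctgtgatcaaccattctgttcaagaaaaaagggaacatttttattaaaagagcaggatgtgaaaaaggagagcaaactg
The next 3 peaks lay within 1 kb of the start of an annotated transcript that is not the outermost start of its gene. They lay in LITAF, which encodes a protein of lysosomal membranes, SLC39A10, which encodes a zinc importer, and ZNF43, a zinc finger gene.
LITAF, shLacZ, chr16:11586839-11587138: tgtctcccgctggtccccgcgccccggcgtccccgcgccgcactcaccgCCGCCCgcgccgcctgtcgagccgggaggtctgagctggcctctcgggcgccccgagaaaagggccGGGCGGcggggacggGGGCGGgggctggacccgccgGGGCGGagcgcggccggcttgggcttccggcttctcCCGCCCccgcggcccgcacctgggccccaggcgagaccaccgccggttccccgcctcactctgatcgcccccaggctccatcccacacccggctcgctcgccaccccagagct
SLC39A10, shRRN3, chr2:195657652-195657951: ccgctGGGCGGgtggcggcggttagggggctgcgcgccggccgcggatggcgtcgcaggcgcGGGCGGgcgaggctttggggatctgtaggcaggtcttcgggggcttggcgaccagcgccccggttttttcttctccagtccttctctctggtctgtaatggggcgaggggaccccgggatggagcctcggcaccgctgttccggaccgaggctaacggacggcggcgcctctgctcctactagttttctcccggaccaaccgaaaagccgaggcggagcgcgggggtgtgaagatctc
ZNF43, shLacZ, chr19:21835861-21836160: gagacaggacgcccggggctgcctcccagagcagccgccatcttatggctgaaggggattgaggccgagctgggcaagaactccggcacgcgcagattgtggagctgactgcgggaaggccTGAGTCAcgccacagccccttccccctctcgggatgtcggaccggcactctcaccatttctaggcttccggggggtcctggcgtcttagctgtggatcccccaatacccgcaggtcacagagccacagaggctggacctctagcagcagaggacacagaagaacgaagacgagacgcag
In the KIF6 window an AP-1 word was centred 2 bp from the midpoint and another 30 bp from it. The ADAMTSL3 window had 1 AP-1 word, 91 bp from the midpoint. The ZNF43 window also had 1, at 26 bp, beside a GC share of 63.3%. The LITAF window held 5 SP/KLF words and no AP-1 word, at a GC share of 79.7%, and the SLC39A10 window held 2 at 69.0%.

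Deep intronic peaks were 18.8% of the shLacZ peaks on the chromosomes used (737 of 3916, interval 17.6% to 20.1%) and 22.96% of the shRRN3 peaks (3288 of 14321, interval 22.3% to 23.7%). Their number was 4.46 times higher in shRRN3 (interval 4.12 to 4.84), and their share was 4.14 percentage points higher (interval 2.71 to 5.52). The direction of the difference in share turned when only the top shRRN3 peaks by score were kept, to the number that shLacZ has, and was then -3.70 points (interval -5.36 to -2.04). Among peaks scoring at or above the shLacZ median the ratio of numbers was 6.94 and the difference in share 6.80 points, and with the starts of all transcripts in the rule the difference was 2.35 points. All intervals are 95% intervals over peaks. With 1 library per hairpin they cover counting error only, treat neighbouring peaks as independent and compare these libraries and not the hairpins, and no p-value was computed.

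The label was checked against the annotation of transcripts, since the rule used only the outermost start of each gene. In the Ensembl canonical transcript of the host gene, 615 of the 737 shLacZ peaks (83.4%) and 2835 of the 3288 shRRN3 peaks (86.2%) lay in an intron. A further 85 and 330 peaks lay upstream of the canonical transcript and 37 and 123 downstream of it, although inside the span of the gene. The peak itself reached into an exon in 9.36% and 11.5% of cases. At 94 shLacZ peaks (12.8%) and 453 shRRN3 peaks (13.8%) the start of some annotated transcript lay within 1 kb of the midpoint, and at 499 (67.7%) and 2162 (65.8%) the nearest transcript start was over 5 kb away. The members therefore held a minority of peaks at transcript starts other than the outermost start of a gene, shown separately where this bears on a result. Starts of canonical transcripts can be among them and were not told apart from the others. Of genes that mark this kind of cell, PAX8 had a TSS peak in both lists, KRT8, KRT18, EPCAM and VIM in shRRN3 alone, and MUC16 and ERBB2 in neither. Only peaks within 1 kb of the outermost start were counted here, so peaks at other starts of these genes were not looked for.

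Deep intronic peaks were narrower and lower in score than promoter peaks. The score is the peak caller's value as deposited, read here as −log10 of a p-value multiplied by 10, and it starts near 50 in both lists. The median width was 224 bp in shLacZ (interval 219 to 228) and 331 bp in shRRN3 (interval 325 to 338), against 477 and 612 bp at promoter peaks, whose midpoints lay within 1 kb of the TSS of a protein-coding gene. The median score was 59.0 and 66.8, against 70.0 and 86.6 at promoter peaks. Classes more like the members were closer in width. Distal intergenic peaks, over 5 kb from every gene, had median widths of 216 and 357 bp and median scores of 71.1 and 72.6. Exonic peaks over 5 kb from every TSS had 271 and 371 bp and scores of 64.3 and 69.1. Scores of members ran from 50.03 to 496 in shLacZ and from 50.02 to 2508.5 in shRRN3.

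Base composition also set them apart from promoters. The 200 bp around the midpoint had a median GC share of 43.5% in shLacZ (interval 42.5% to 44%) and 42% in shRRN3 (interval 42% to 42.5%), against 39.8% and 40.2% in windows 3 kb to each side and 65.0% and 64.5% at promoter peaks. The observed over expected ratio of CpG dinucleotides was 0.179 in both lists, against 0.871 and 0.833 at promoter peaks. In the flanking windows the CpG ratio was 0.170 (interval 0.160 to 0.181) and 0.183 (interval 0.179 to 0.189). Members were thus richer in GC than the sequence beside them by a few points, with a CpG ratio that lay close to that of the flanks.

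Of the 14 words searched, the AP-1 word exceeded the flanking sequence by most. It was found in the 300 bp around the midpoint of 237 of 737 shLacZ peaks, or 32.2% (interval 28.8% to 35.7%), and of 1331 of 3288 shRRN3 peaks, or 40.5% (interval 38.8% to 42.2%). Over all peaks of the lists the shares were 19.2% and 26.9%. In windows of the same length 3 kb to each side they were 9.23% and 9.67%, which was 22.9 points (interval 19.3 to 26.7) and 30.8 points (interval 29.0 to 32.6) below the members. Promoter peaks held the word in 4.15% and 5.38% of cases, and 7.71% of the 35116 promoters of RefSeq, which are also 300 bases long, held it.

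The words gathered at the middle of the peaks. Within 50 bp of the midpoint there were 2.55 AP-1 words per kb in shLacZ and 2.90 in shRRN3, and 900 to 1000 bp away there were 0.339 and 0.354. The centre was thus 7.52 times denser in shLacZ (interval 5.48 to 10.5) and 8.19 times denser in shRRN3 (interval 7.09 to 9.49). At promoter peaks the same ratio was 1.38 (interval 0.843 to 2.23) and 0.944 (interval 0.728 to 1.22).

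**Figure D1:**
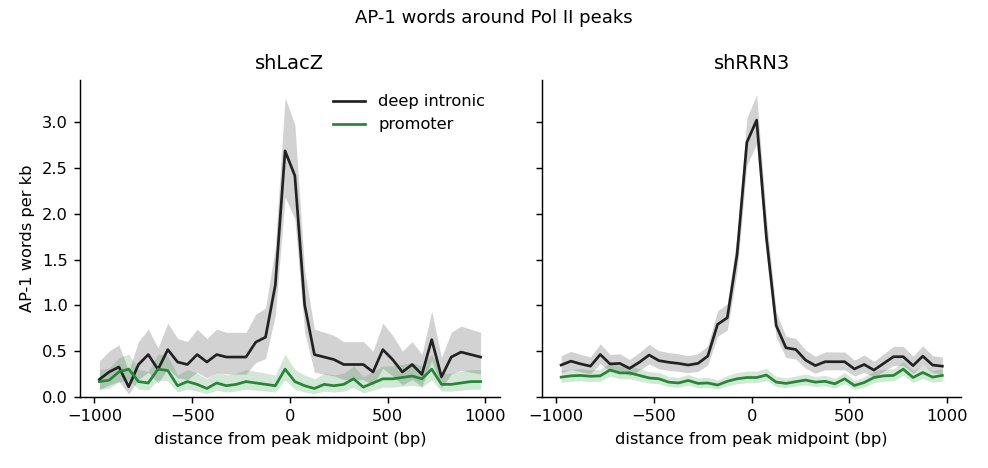
AP-1 words per kb (vertical axis) by distance from the peak midpoint in bp (horizontal axis, bins of 50 bp) for deep intronic and promoter peaks of each list, with bands for the 95% Poisson interval. In both lists the deep intronic line peaks at the midpoint and is flat farther out, while the promoter line has no such summit.

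The share of AP-1 words was also set against the other classes of peaks. Distal intergenic peaks, which lie over 5 kb from every gene, held the word in 29.2% of cases in shLacZ, where members were 3.00 points higher (interval -2.16 to 8.06), and in 51.7% in shRRN3, where members were 11.2 points lower (difference -11.2, interval -14.3 to -8.19). In shLacZ, 18.5% of the distal intergenic windows held a satellite word, the unit GGAAT followed by itself, against 0.271% of the deep intronic windows. Exonic peaks over 5 kb from every TSS had the AP-1 word in 16.4% and 25.8% of cases, and members exceeded them by 15.8 points (interval 8.80 to 21.6) and 14.7 points (interval 10.7 to 18.4). Peaks that were neither in these classes nor at promoters held it in 24.1% and 29.8% of cases, and members exceeded them by 8.10 points (interval 3.94 to 12.3) and 10.7 points (interval 8.52 to 12.8).

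The AP-1 share of members was 8.32 points higher in shRRN3 than in shLacZ (interval 4.49 to 12.005). Over all peaks the shRRN3 list was higher by 7.69 points (interval 6.24 to 9.10), and over distal intergenic peaks by 22.6 points (interval 17.8 to 27.04), so the difference was not particular to members. In quintiles of score, set within each list, the difference ran from 4.91 to 12.2 points, and the interval lay above 0 in the lowest and the middle quintile. Over 5 kb from any transcript start the shRRN3 share was 10.8 points higher (interval 6.03 to 15.3), and within 1 kb of one it was 4.63 points higher (interval -5.65 to 13.2). In shLacZ, members that a shRRN3 peak overlapped held the word in 43.2% of cases and the others in 23.02%, a difference of 20.2 points (interval 13.4 to 26.8). In shRRN3 the corresponding shares were 43.7% and 40.1% (difference 3.52, interval -2.07 to 9.24). The shLacZ peaks without a partner thus had the lowest share of these 4 groups. In both lists the lowest quintile of scores held fewer AP-1 words than the other quintiles, 22.5% in shLacZ and 29.3% in shRRN3.

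Of the other 13 words searched, those of TEAD and RUNX were also more frequent at members than beside them. CATTCC, the TEAD word, was in 26.7% of shLacZ and 25.3% of shRRN3 members, which was 11.3 points (interval 7.63 to 15.01) and 10.8 points (interval 9.07 to 12.5) above the flanking windows. It was in 14.03% of all RefSeq promoters, and it shares letters with the satellite word. Distal intergenic peaks held it more often, in 43.7% and 31.5% of cases. Members differed from them by -17.0 points (interval -22.2 to -11.7) and -6.13 points (interval -8.95 to -3.36). Exonic peaks far from a TSS held it less often, in 14.7% and 18.1%. TGTGGTT, the RUNX word, was in 10.3% and 9.79%, which was 5.09 points (interval 2.73 to 7.70) and 4.39 points (interval 3.27 to 5.58) above the flanks, and in 4.27% of RefSeq promoters. Distal intergenic peaks held the RUNX word in 5.98% and 11.4% of cases, and exonic peaks far from a TSS in 7.34% and 7.99%. Neither the TEAD nor the RUNX share of members differed between the lists beyond its interval. The differences were -1.40 points (interval -5.01 to 2.03) and -0.519 points (interval -3.11 to 1.74). GGGCGG, the SP/KLF word, was in 8.55% and 7.94% of members, against 3.32% and 4.20% of the flanks, 65.9% and 64.2% of promoter peaks and 45.0% of RefSeq promoters. A word is a match of letters and was not tested for binding.

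Smaller differences from the flanks were seen for further words. The CTCF word was in 1.22% and 1.73% of members and in 0.204% and 0.669% of flanks, and the antioxidant response word TGACNNNGC in 13.4% and 13.2%, against 10.3% and 8.42%. CCAAT and the C/EBP word TTGCNNAA exceeded the flanks by 2.36 to 6.51 points in the lists. The forkhead word TGTTTAC was within its interval of the flanks in shLacZ and 1.09 points above them in shRRN3 (interval 0.185 to 2.06). The E-box CACGTG differed from the flanks by less than its interval in both lists, and the TATA word TATAAA was 3.71 points less frequent in members of shRRN3 (difference -3.71, interval -5.56 to -1.83) and within its interval in shLacZ. The ETS word CCGGAAGT was in under 1% of members of either list.

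The members split by nearness to an annotated transcript start. Those within 1 kb of one had a median width of 339 bp in shLacZ and 412 bp in shRRN3, against 220 and 320 bp over 5 kb away. Their median GC share was 54.8% and 48.5%, against 43.0% and 42.0%. The SP/KLF word was in 41.5% (interval 31.4% to 52.1%) and 30.7% (interval 26.5% to 35.2%) of them, against 3.41% and 3.98% over 5 kb away. The AP-1 word went the other way, with 23.4% and 28.0% near a transcript start and 34.3% and 45.1% far from one, a difference of 10.9 points in shLacZ (interval 0.546 to 19.4) and 17.0 points in shRRN3 (interval 12.2 to 21.5). The members near transcript starts thus carried the features of CpG island promoters more often, and LITAF and SLC39A10 above are among them.

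Because the study asked about termination, members were also set against annotated transcript ends, a comparison chosen after the data were seen. The ends were those of all annotated transcripts of protein-coding genes, whatever the type of the transcript. Which of these ends are polyadenylation sites was not checked. The 5 kb past such an end, in the direction of transcription, made up 12.2% of the sequence that meets the rule and held 135 of the shLacZ members (18.3%) and 600 of the shRRN3 members (18.2%). Per Mb this was 1.61 times the density elsewhere in shLacZ (interval 1.32 to 1.94) and 1.60 times in shRRN3 (interval 1.46 to 1.75). The share past an end differed between the lists by -0.0693 points (interval -3.29 to 2.89). In shRRN3 these peaks held the AP-1 word in 29.7% of cases and the others in 42.9% (difference -13.2, interval -17.2 to -9.02), and in shLacZ in 25.9% and 33.6% (difference -7.63, interval -15.3 to 1.15). Distance to a TSS was not held constant in this comparison.

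AATAAA, the hexamer of the polyadenylation signal, was less frequent in members than in the flanks. On the strand of the host gene it was in 20.5% of shLacZ members and 22.5% of flanks (difference -2.04, interval -5.56 to 1.66), and in 19.0% of shRRN3 members and 22.004% of flanks (difference -2.97, interval -4.62 to -1.27). Members were also richer in GC than the flanks, and the part of this in the difference was not tested. Within 5 kb of the end of their own gene lay 25 shLacZ members (3.39%) and 117 shRRN3 members (3.56%). The share of eligible sequence there was not computed, so these shares have no reference.

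Density fell with distance from the TSS. The sequence that meets the rule amounts to 1006 Mb, and it held 0.732 shLacZ and 3.27 shRRN3 members per Mb. In sequence 5 to 10 kb from the nearest TSS of any gene there were 1.02 shLacZ members per Mb (interval 0.861 to 1.19) and 5.30 shRRN3 members (interval 4.93 to 5.68). Over 100 kb away there were 0.353 (interval 0.255 to 0.475) and 1.20 (interval 1.01 to 1.41). The near bin was thus 2.89 times denser than the far bin in shLacZ (interval 2.04 to 4.15) and 4.43 times denser in shRRN3 (interval 3.71 to 5.32). With the starts of all transcripts in the rule these ratios were 4.58 and 7.10. The ratio of shRRN3 to shLacZ members was 5.21 in the nearest bin (interval 4.37 to 6.24) and 3.40 in the farthest (interval 2.40 to 4.89).

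**Figure D2:**
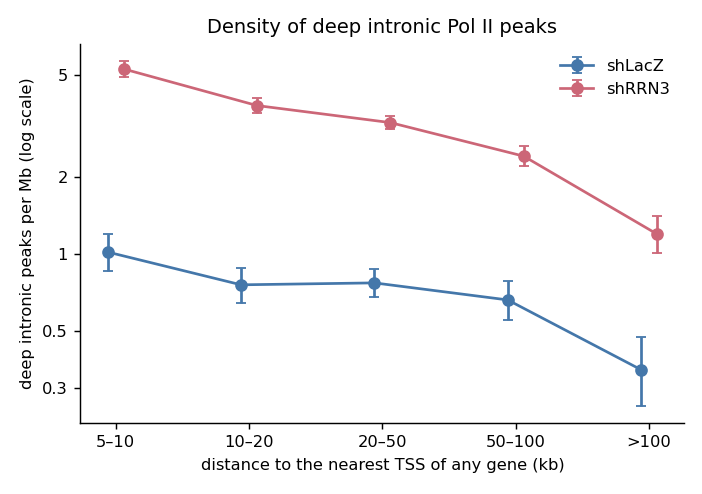
Deep intronic peaks per Mb of sequence that meets the rule (vertical axis, log scale) in 5 bins of distance to the nearest TSS in kb (horizontal axis), for each list, with 95% Poisson intervals. Density falls from 1.02 to 0.353 per Mb in shLacZ and from 5.30 to 1.20 in shRRN3, and the shRRN3 points are higher in every bin.

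AP-1 words were more frequent at members far from a TSS. In shRRN3 the share was 33.5% at 5 to 10 kb (interval 30.2% to 37.0%), 42.8% at 20 to 50 kb and 49.4% at 50 to 100 kb (interval 44.7% to 54.0%). In shLacZ it was 26.0% at 5 to 10 kb (interval 19.2% to 33.8%) and 39.4% at 50 to 100 kb (interval 30.8% to 48.4%). Over 100 kb away it was 45.9% and 30.2%, the latter over 43 peaks.

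By chromosome, members per Mb were lowest on chromosome X in both lists, at 0.119 in shLacZ and 0.711 in shRRN3. Chromosome 12 was highest in both, at 1.53 and 4.89. Chromosome 7 stood low at 0.220 and 1.24, and chromosome 16 at 0.145 and 1.71. The copy number of these chromosomes in the cells was not measured here.

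The places of members within genes were set against the sequence that the rule admits. The median intron was 27219 bp long in shLacZ (interval 23090 to 33375) and 25678 bp in shRRN3 (interval 23917 to 27508), against 32177 bp over the bases of canonical introns that meet the rule. The median distance to the nearest splice site of the canonical transcript was 5963 bp (interval 5019 to 7060) and 5177 bp (interval 4798 to 5574), against 6343 bp over these bases. An exon of any gene lay within 1 kb of 25.4% of shLacZ members (interval 22.3% to 28.7%) and 29.9% of shRRN3 members (interval 28.3% to 31.5%), against 21.3% of the sequence. Members of both lists were thus more often near an exon than this sequence, and those of shRRN3 also lay in shorter introns. A transcript start is also the edge of an exon. The 187 shLacZ and 983 shRRN3 members near an exon therefore include the 94 and 453 within 1 kb of a transcript start. The shares without these were not computed, so how far the excess near exons rests on them was not tested. The median distance to the host's own TSS was 57128 and 49093 bp. The first intron held 176 of the 615 shLacZ members in canonical introns, or 28.6% (interval 25.1% to 32.4%), and 859 of 2835 in shRRN3, or 30.3% (interval 28.6% to 32.03%). First introns made up 21.9% of the eligible intron sequence, below both intervals. With introns taken between the union of all exons, first introns held 13.8% and 13.7% of members and 11.3% of the sequence. The median member lay at 45.6% and 44.6% of the length of its gene.

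Fewer deep intronic peaks recurred in the other list than peaks of other classes, with score not held constant. Of the 737 shLacZ members, 333 were overlapped by a shRRN3 peak by at least 1 bp, or 45.2% (interval 41.5% to 48.9%), where the share over all shLacZ peaks was 66.2%. Of the 3288 shRRN3 members, 323 had a shLacZ peak on them, or 9.82% (interval 8.83% to 10.9%), where the share over all shRRN3 peaks was 16.9%. Promoter peaks were overlapped at 83.5% and 24.5%, so that members differed from them by -38.3 points (interval -42.3 to -34.1) and -14.7 points (interval -16.3 to -13.1). Against exonic peaks far from a TSS the differences were -15.3 points (interval -23.04 to -7.08) and -5.51 points (interval -8.73 to -2.67), and against distal intergenic peaks -8.46 points (interval -13.95 to -2.90) and -7.53 points (interval -9.76 to -5.40). Against the peaks in none of these classes they were -21.5 points (interval -25.9 to -16.9) and -5.07 points (interval -6.50 to -3.60). With a shared stretch of 50% or more of each peak required, 24.8% and 5.60% of members were overlapped, and against the shortened shRRN3 list 25.9% and 29.4%. Among peaks scoring at or above the shLacZ median the shLacZ gap to promoter peaks was -18.8 points.

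Overlap rose with score. In the lowest quintile of scores of the own list 24.8% of shLacZ members were overlapped (interval 19.2% to 31.0%), and in the highest 92.9% (interval 84.1% to 97.6%), with 5 of 70 peaks left without a partner. In shRRN3 the shares were 2.77% and 35.9%. The gap to promoter peaks within a quintile fell from -47.8 points in the lowest (interval -55.7 to -38.6) to -4.28 points in the highest in shLacZ (interval -12.9 to 0.588), and in shRRN3 it ran from -5.34 points in the lowest (interval -8.01 to -3.00) to -13.8 points in the highest (interval -19.2 to -8.21). Against distal intergenic peaks the sign turned in shLacZ, where members were overlapped less often in quintile 2 (-17.9 points, interval -29.6 to -5.63) and more often in quintiles 4 (19.4 points, interval 5.81 to 32.1) and 5 (12.1 points, interval 2.12 to 19.9). Against exonic peaks far from a TSS the shLacZ gap was -16.3 points in the lowest quintile (interval -32.7 to -1.04). In the highest it was 3.97 points (interval -7.22 to 21.4). In shRRN3 these gaps were -2.69 points (interval -8.16 to 0.384) and -9.60 points (interval -20.3 to 0.955). In the quintiles between, members were lower in both lists. Among the exonic comparisons only the interval of the lowest shLacZ quintile excluded equal shares. Members were narrower than promoter peaks within each quintile, and the part of width in the overlap was not tested.

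**Figure D3:**
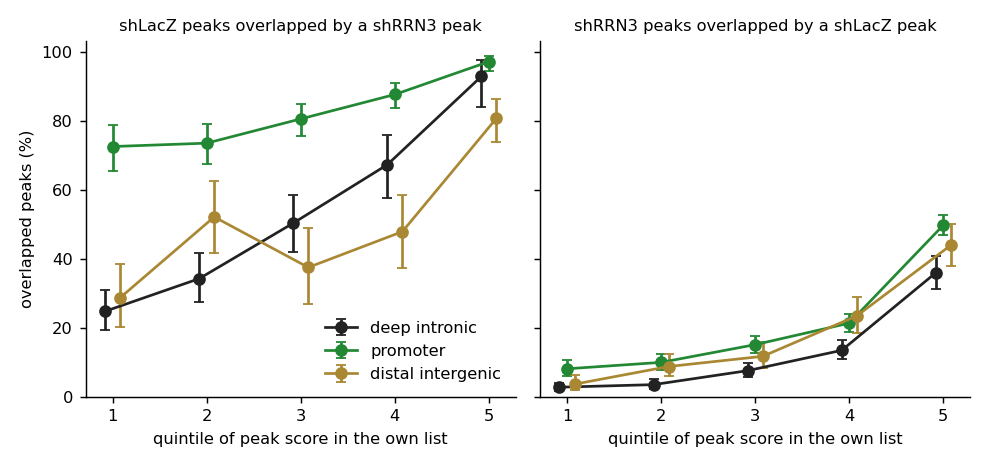
Share of peaks with an overlapping peak in the other list in per cent (vertical axis) by quintile of score in the own list, from 1 (lowest) to 5 (horizontal axis), for deep intronic, promoter and distal intergenic peaks, with 95% exact intervals. Deep intronic peaks climb from 24.8% to 92.9% in shLacZ and from 2.77% to 35.9% in shRRN3, below promoter peaks throughout.

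The 8 highest-scoring members of shLacZ all had a partner in shRRN3. The first lay in ZNF43, with a width of 1387 bp and a score of 496 in shLacZ against 581 in shRRN3. A peak of 461 bp in intron 1 of NUDT19, which encodes a Nudix hydrolase, scored 366 and 377. A peak in intron 4 of FMN1, which encodes an actin-nucleating formin, scored 323 and 446. In ANKRD10 intron 4 a peak scored 355 in shLacZ and 562 in shRRN3, where it was 2406 bp wide. At CPEB4, whose product binds cytoplasmic polyadenylation elements, the peak lay 115 bp from an annotated transcript start and scored 201 and 459. A peak in the zinc finger gene ZNF630 scored 214 and 256.

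In shRRN3 the highest score by far was at EEF1A1, which encodes the elongation factor of translation that delivers aminoacyl-tRNA. This peak scored 2508.5, was 4117 bp wide and overlapped a shLacZ peak of score 474. Its midpoint lay downstream of the canonical transcript, 395 bp past the end of an annotated EEF1A1 transcript. The nearest exon was also 395 bp from the midpoint, so the peak reached into an exon and was a member by its midpoint only. The peaks in ZNF43 and ANKRD10 described above came next, followed by one in RRM2. The fifth and sixth places went to peaks in PRDX1, a peroxiredoxin gene, and PARK7, which encodes a redox-sensitive chaperone. They lay upstream of the canonical transcripts, 350 and 97 bp from the nearest annotated transcript start. Their scores were 477 and 471, against 152 and 187 in shLacZ. Scores depend on the depth of each library, so these pairs of values are no comparison of Pol II levels.

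Members without any peak of the other list within 1 kb had lower scores in shLacZ than in shRRN3. The shLacZ ones were led by RUSC2 with 135, KIF6 with 108, ZNF608 with 103.45, LITAF with 103.01, RIN2 with 98.5 and DCDC2 with 95.7. The shRRN3 ones were led by RRM2, which encodes the small subunit of ribonucleotide reductase, with a score of 487 over 2460 bp. The RRM2 peak lay downstream of the canonical transcript, 5460 bp past the nearest transcript end and 16.2 kb from the TSS. It was followed by SLC39A10 with 398, MSR1, a scavenger receptor gene, with 396, the unnamed gene ENSG00000288000 with 374, SPIDR, a gene of homologous recombination, with 348, and ADAMTSL3 with 300.2. Of these 6, AP-1 words were found at ADAMTSL3 alone, and of the 6 shLacZ peaks at KIF6 and RIN2.

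The members lay in 551 host genes in shLacZ and 1795 in shRRN3, where each member was assigned to 1 gene. This was 3.56% and 11.6% of the 15498 protein-coding genes with sequence that meets the rule. The lists shared 398 hosts, or 72.2% of the shLacZ and 22.2% of the shRRN3 hosts. Hosts were long, with a median of 110 and 85.2 kb of such sequence against 25.0 kb over all these genes. A peak at the host's own TSS was found at 74 of the 551 (13.4%, interval 10.7% to 16.6%), where the share over all these genes was 7.63%, and at 649 of the 1795 (36.2%, interval 33.9% to 38.4%), where it was 25.5%. In the third of genes with the most such sequence, 15.1% of genes with a TSS peak hosted a member in shLacZ (interval 11.5% to 19.3%) and 7.55% of those without (interval 6.82% to 8.33%), and in shRRN3 32.5% (interval 29.8% to 35.2%) and 21.3% (interval 20.04% to 22.6%). Most hosts nonetheless had no peak at their own outermost TSS. Among peaks at or above the shLacZ median score the share with one was 8.87% in shLacZ and 26.3% in shRRN3. With the starts of every transcript used throughout, it was 19.3% in shLacZ and 49.0% in shRRN3 (interval 46.2% to 51.8%).

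Members clustered in some hosts. In shLacZ 9 genes held 5 or more members, 70 in all (9.50%), and in shRRN3 101 genes held 793 (24.1%). Runs of members whose neighbours were at most 5 kb apart held 119 shLacZ members (16.1%) and 1019 shRRN3 members (31.0%). Runs of 7 or more in shRRN3 were found, among others, in KRCC1 (10 peaks), NFE2L3 (8), and ANXA2, FGD4, MSR1, RPL37A and RUSC2 (7 each), which were named after their values were seen.

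**Figure D4:**
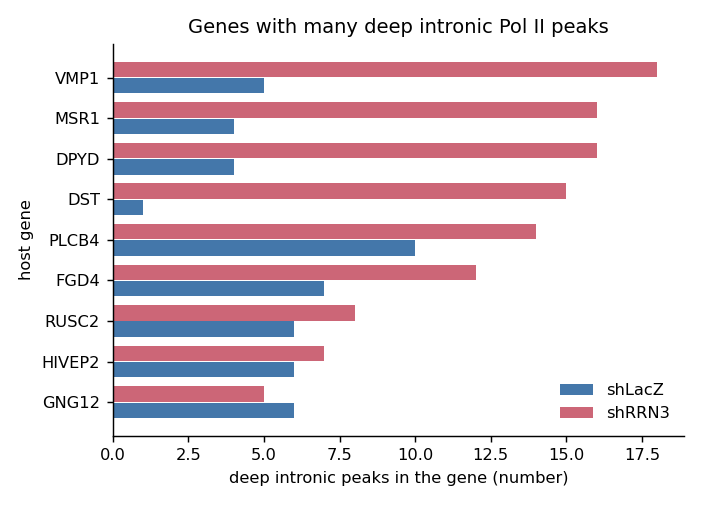
Number of deep intronic peaks (horizontal axis) in 9 of the genes that ranked among the 6 with the most in either list (vertical axis), by list. Of these 9, PLCB4 has the most in shLacZ (10) and VMP1 in shRRN3 (18), and GNG12 is the only one with more in shLacZ (6 against 5).

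Of the genes plotted, PLCB4, which encodes a phospholipase C, held 10 members in shLacZ and 14 in shRRN3, and none of them had a partner in the other list. FGD4, an activator of the GTPase CDC42, held 7 and 12, RUSC2 6 and 8, and HIVEP2, a zinc finger factor, 6 and 7. VMP1, which encodes a membrane protein needed for autophagosome formation, held 5 and 18, and all 5 of its shLacZ members were overlapped. DPYD, which encodes the first enzyme of pyrimidine breakdown, held 4 and 16 in 821 kb of sequence, MSR1 4 and 16, and DST, a cytolinker gene, 1 and 15. DPYD, DST and HIVEP2 lay outside the densest 1 Mb bins of the series, while the members of the other 6 genes lay inside them. Those 47 bins of 3044 held 16.1% of the shLacZ and 11.4% of the shRRN3 members.

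The genes of 8 lists were set against the hosts. Together 26 of their 269 genes with eligible sequence hosted a member in shLacZ and 83 in shRRN3, or 9.67% and 30.9%, against 3.56% and 11.6% of all such genes. The median eligible sequence of the listed genes was 53.7 kb against 25.0 kb, and in the third of all genes with the most eligible sequence 8.05% and 23.9% were hosts. The lists were not tested as sets. At scores at or above the shLacZ median 13 listed genes were hosts in shLacZ, and in the shortened shRRN3 list 33 were.

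Regulators of the actin cytoskeleton hosted members at 7 of 45 genes in shLacZ (15.6%) and 25 in shRRN3 (55.6%). Their median eligible sequence of 128 kb was the longest of the 8 lists. SRGAP1, which encodes a GTPase-activating protein of the Slit-Robo pathway, held 4 and 10 members with highest scores of 95.8 and 335. DIAPH1, a formin gene, held 1 in each list, at the same site in intron 27, with scores of 54.5 and 104 and an AP-1 word. FMNL2, another formin gene, held 8 in shRRN3 alone, 6 of them with an AP-1 word. FLNA, which encodes filamin A, had a peak of score 237 in shRRN3 alone, 5.33 kb from its TSS.

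Genes of YAP and TEAD factors and their targets hosted members at 5 of 31 genes in shLacZ (16.1%) and at 17 in shRRN3 (54.8%), with a median eligible sequence of 82.2 kb. WWTR1, which encodes the coactivator TAZ, held 2 and 7 members, and VGLL4, a TEAD cofactor, 1 and 2 at a shared site with scores of 61.7 and 138. ARHGAP29 held 2 and 12. TEAD1 itself held 2 in shRRN3, the higher with a score of 138 and an AP-1 word, and CRIM1 held 7 in shRRN3. F3, which encodes tissue factor, held 3 and 4, with highest scores of 81.3 and 117 at different sites.

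Focal adhesion and integrin genes were hosts at 5 of 36 genes in shLacZ (13.9%) and 13 in shRRN3 (36.1%), with a median eligible sequence of 67.2 kb. At ITGB1, the common beta subunit of many integrins, a peak near an annotated transcript start scored 69.3 and 137 and held an AP-1 word. VCL, which encodes vinculin, had a shared peak in intron 6 with scores of 62.8 and 112 and an AP-1 word. At PTK2, the gene of focal adhesion kinase, a shared peak in intron 7 scored 57.0 and 164. LPP held 3 members in each list, the highest with scores of 84.6 and 161 at different sites. All 5 shLacZ hosts of this list were also hosts in shRRN3.

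Receptor tyrosine kinases with their adaptors had no host in shLacZ (0 of 40, which allows a share of up to 8.81% by the exact interval). In shRRN3 10 were hosts (25.0%, interval 12.7% to 41.2%). Their median eligible sequence was 84.5 kb. In the third of all genes with the most eligible sequence 8.05% were hosts in shLacZ and 23.9% in shRRN3, so both counts were near those of long genes. Of the shRRN3 hosts 4 were left at scores at or above the shLacZ median, and 0 when the shRRN3 list was shortened to the number of shLacZ peaks. EGFR held 4 members, 2 of them with an AP-1 word, with a highest score of 80.7 in intron 1. FRS2, an adaptor of FGF receptors, held 7, CBLB, a ubiquitin ligase, 5, and MET and IGF1R 1 each with scores of 55.4 and 66.0. The difference between the lists was in the number of peaks called, and shRRN3 had 4.46 times as many members in all.

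Of core autophagy genes, which the study followed up, 2 of 41 hosted a member in shLacZ (4.88%) and 5 in shRRN3 (12.2%). These shares were close to the 3.56% and 11.6% over all protein-coding genes with eligible sequence. VMP1 was a host in both. ATG7, which encodes the enzyme that activates ATG8 proteins, had 1 in shLacZ with a score of 54.4 and an AP-1 word. ATG5, EPG5 and RPTOR, the gene of the mTORC1 subunit raptor, held 2 each in shRRN3, with highest scores of 112, 136 and 97.5, and SQSTM1, the gene of the receptor p62, held 1. Both RPTOR peaks held an AP-1 word and both ATG5 peaks did not.

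Factors that act on Pol II itself were hosts as well. Elongation factors were hosts at 5 of 32 genes in shLacZ (15.6%, interval 5.28% to 32.8%) and 6 in shRRN3 (18.8%, interval 7.21% to 36.4%). Over all genes with eligible sequence the shares were 3.56% and 11.6%. The median eligible sequence of this list was 37.4 kb, against 25.0 kb over all such genes. CTR9, a subunit of the PAF1 complex, had a shared peak outside its canonical transcript with scores of 143 and 384. CDK12, a kinase of the Pol II C-terminal domain, held 3 and 4 members, the highest with scores of 112 and 123 at different sites. AFF1, a scaffold of the super elongation complex, had a shared peak with an AP-1 word and scores of 53.3 and 83.6. Factors of RNA 3′ end processing were hosts at 1 of 26 genes (3.85%, interval 0.0973% to 19.6%) and 6 of 26 (23.1%, interval 8.97% to 43.6%). Their median eligible sequence was 21.9 kb. Each host had 1 or 2 low peaks of score at most 71.9. SCAF4, whose product limits the use of early polyadenylation sites, was a host in both lists, at different sites of intron 19. AP-1 and NF-kB factors, mostly short genes with a median of 9.70 kb eligible, were hosts at 1 and 2 of 19 (5.26% and 10.5%). The hosts were NFKBIZ in both lists and ATF3 in shRRN3.

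Of the genes the study named, RRN3, OPTN, BECN1, ATG16L1 and BMI1 had no deep intronic peak in either list, with 25.5, 22.4, 3.70, 57.6 and 0.748 kb of eligible sequence. COMMD3 has none of it, because its whole span lies within 5 kb of a TSS, so it could hold no member.

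At the distance of 5 kb that the rule sets, the lists held 20 and 188 otherwise eligible peaks from 4 to 5 kb and 29 and 197 from 5 to 6 kb from the nearest TSS. Their median scores were 61.7 and 70.9 just outside and 55.0 and 69.8 just inside. The nearest peaks outside lay at 4871 bp in shLacZ and 4997 bp in shRRN3, and the nearest inside at 5007 and 5012 bp.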

How the data were processed

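Pol II ChIP-seq was analysed from the peak lists that the authors deposited, 1 per hairpin, which hold coordinates (chromosome, start and end), a name and a score per peak. Peak names carry the name of the caller MACS. Its version and threshold, the aligner, the handling of duplicates and the use of the inputs are not given in the sources used here, and the sequencing depth is unknown from the lists. Read as 10 times −log10 p, the deposited score starts at 50.03 in shLacZ and 50 in shRRN3 and has a ceiling of 3100. The submitters' processing notes name the build hg38, which the versions of the sequence names bear out. Names, exons, transcript ends and starts came from GENCODE release 44 and promoters from RefSeq on GRCh38.

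Shares have exact Clopper-Pearson intervals, differences of shares Newcombe intervals, ratios of counts exact conditional intervals, densities exact Poisson intervals and medians intervals from order statistics, all at 95%. Overlap meant 1 shared bp. Words were searched on both strands of the 300 bp around midpoints: TGANTCA for AP-1, CATTCC for TEAD, GGGCGG for SP/KLF, CCAAT for NF-Y, CCGGAAGT for ETS, TATAAA for the box of that name, CACGTG for the E-box, TTGCNNAA for C/EBP, TGTTTAC for forkhead, TGTGGTT for RUNX, TGACNNNGC for the antioxidant element, AATAAA for polyadenylation, the CTCF word and the satellite word. Named loci were the 8 highest-scoring members per list, the 6 highest without a peak of the other list within 1 kb, the 6 genes with the most members, the hosts among 8 gene lists and 8 genes the study named, and some of these loci are not reported here. The members, lists and words were chosen with earlier results of these data known.

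Alternatives were a score at or above the shLacZ median, other distances, all transcript starts, other exon rules, other overlap rules and windows, the list reduced in length, and no dense bins, and, chosen after seeing the data, no peaks within 1 kb of a transcript start. The steps were tested on simulated data and overlaps checked with bedtools 2.31.1. Other software was samtools 1.23.1, pysam 0.24.0, matplotlib 3.10.9, scipy 1.17.1, pandas 2.3.3, numpy 2.4.6 and Python 3.11.15.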

Additional observations from a re-analysis of the deposited data

How the results depend on the processing

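Of 207 alternative values for 44 results, 111 did not leave the main interval (counts, 1.5 times the main count), 95 did and 1 reversed. The shRRN3 list cut to the length of the shLacZ list turned the difference in deep intronic share to -3.70 points. It also gave overlap of 25.9% (shLacZ) and 29.4% (shRRN3), a shRRN3 AP-1 share of 47.0%, a width of 518 bp and 33 listed hosts. With scores at or above the shLacZ median, the ratio of numbers was 6.94, the difference in share 6.80 points, shLacZ overlap 65.3%, the gaps to promoters -18.8 and -11.0 points, hosts with a TSS peak 8.87% and 26.3%, the shRRN3 AP-1 share 45.9%, GC 45.5% and 43.75%, width 288 and 408.5 bp, and shLacZ listed hosts 13. With starts of every transcript, the difference in share was 2.35 points, the density ratios 4.58 and 7.10, hosts with a TSS peak 19.3% and 49.0%, shRRN3 width 320 bp and shLacZ listed hosts 17. Distances of 2 and 10 kb gave differences in share of 6.13 and 2.52 points. With 50% of both peaks shared, overlap was 24.8% and 5.60% and the gaps to promoters -31.6 and -11.4 points, and with a peak within 1 kb counted too, overlap was 50.6% and 13.1%. In introns between the union of all exons the first intron held 13.8% and 13.7%. TSS peaks within 2 kb gave 39.3% in shRRN3. The AP-1 share was 28.1% and 35.5% in 200 bp windows, and in shRRN3 43.9% over whole peaks and 42.3% without the densest bins. GC over whole shRRN3 peaks was 41.6%. Without members within 1 kb of a transcript start, chosen after seeing the data, widths were 217 and 323 bp, the shRRN3 AP-1 share 42.5% and its GC 41.5%. The cause of these moves was not tested beyond what each setting changes by its construction. No paired analysis was possible because the hairpins had 1 library each. The lists hold no counts, so depth, which limits which low peaks were called, was not used here.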
